A study of Saccharomyces cerevisiae with 32 samples.

Results

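The genes described here encode subunits of RNA polymerase II, the enzyme that makes messenger RNA in the nucleus. They were chosen by gene symbol, without regard to their values: RPO21, RPB2, RPB3, RPB4, RPB7, RPB9 and RPB11, whose products belong to polymerase II alone, and RPB5, RPB8 and RPO26, whose products are built into RNA polymerases I, II and III alike. All 10 genes were found among the 5449 genes of budding yeast measured on the arrays, each with 1 probe set, and all 10 lay above the background filter that left 5377 genes for testing. The 32 samples came from 1 continuous culture of the MATa strain CEN.PK113-7D, kept at 30 °C and pH 4.0 while its dissolved oxygen oscillated with a period of about 2 h (115 min from the phase angles). Sampling at steps of 4 min covered 10 h to 12.1 h on the time scale of the labels, and total RNA was hybridised to 1 Affymetrix Yeast Genome 2.0 array per sample. Every sample belongs to the same group and differs from the others in its phase angle, which advanced by 12.47° from sample to sample. The medium held glucose, and the labels name 2 fermentor models without saying which was used. No culture was repeated. Each p-value therefore rests on the scatter of neighbouring samples, about a curve or within windows of 4 samples. The number of arrays limits the precision.

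The eukaryotic polymerases divide the work of transcription: polymerase I makes the large ribosomal RNAs, polymerase III makes transfer RNAs and the 5S ribosomal RNA, and polymerase II makes messenger RNAs and many small nuclear and nucleolar RNAs. The enzymes share a set of small subunits, and each adds its own large catalytic subunits and its own stalk and peripheral subunits. In yeast the demand on polymerases I and III follows ribosome production, and genes of ribosome assembly are known to be switched on and off as a group with growth conditions.

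The 32 arrays had median signals of 1435.5 to 2340.2 for S. cerevisiae probe sets, against 5.4 to 9.8 for those of S. pombe, a fission yeast whose genes the array also carries, which served as background. Levels below are normalized signals, in the linear units of the deposited intensities after quantile normalization, and they are compared between samples of the same gene and never between genes. The fitted range of a gene is the log2 difference between the peak and the trough of a cosine curve of the phase angle. The poly-A control transcripts had log2 signals of 7.37 to 7.60 in the 4 samples from 46.8° to 84.2° and of 8.08 to 8.30 in the 4 from 96.6° to 134.03°. The ratio of 3′ to 5′ signal of the actin gene ACT1, a measure of RNA and labelling quality, lay between 0.21 and 0.78 on the log2 scale, and its 3 highest values, 0.70, 0.78 and 0.75, were those of the last 3 samples. The part of either in the results below was not tested.

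The 10 genes fell into contrasting courses over the cycle. The 3 genes of subunits common to all polymerases swung 4.09-fold to 7.87-fold between their lowest and highest samples, being high from about 22° to 59° and low from about 97° to 134.03°. The genes of polymerase II alone moved far less, 1.36-fold to 1.59-fold, apart from RPB9 with 2.78-fold. Of the 10 genes, 9 varied with phase (cosine and sine tested jointly by limma's moderated F, with a Benjamini-Hochberg adjusted p under 0.05 over all genes), a share near the background of 91.3% of all genes tested. The sizes of the swings spread widely. Fitted ranges of at least 1 on the log2 scale were found for the 3 common subunits and for none of the other 7, against 29.6% of all genes. The median range was 1.35 for the 3, 0.23 for the 7 and 0.63 over all genes tested. With the arrays scaled by their poly-A controls these medians were 1.69, 0.87 and 0.84, so that the 7 were no longer below all genes, and RPB9 reached a range of 1.24.

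**Figure D1:**
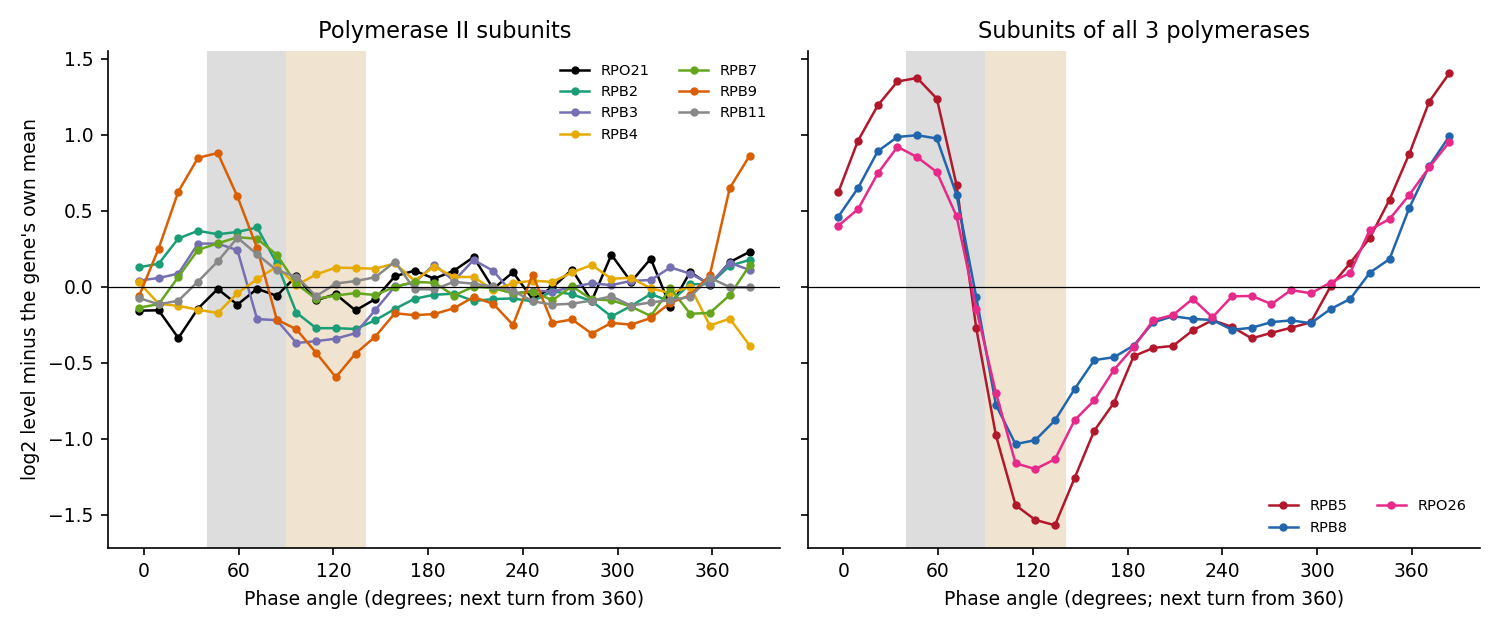
Log2 level of each gene minus its own mean over the 32 samples, against the phase angle; the left panel shows the 7 genes of polymerase II alone, the right panel the 3 genes of subunits common to all polymerases, and the shaded bands mark the 4 samples before and the 4 after the switch. RPB5, RPB8 and RPO26 were high up to 59.2°, fell from there to 96.6° and were low in the second band. RPB9 was also high before the switch and low in the second band, with a smaller swing. RPO21 did not pass the test of phase. Its mean normalized signal went, unevenly, from 5530 in the first 4 samples to 6919 in the last 4, at similar phases.

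RPB5 (YBR154C) encodes a common subunit that lies at the downstream jaw of the enzyme. Its normalized signal ranged from 1068 at 134.03° to 8404 at 23.8°, with a median of 2671. The signal lay between 7259.8 and 8228 in the samples at 21.8°, 34.3°, 46.8° and 59.2°, went down to 5053 at 71.7°, 2630.0 at 84.2° and 1612 at 96.6°, and then stayed between 1068 and 1325 up to 146°. Over windows of 4 samples the mean then rose from 1236 ± 254 (SD, n = 4) at 96.6° to 134.03° to 1788 ± 415 at 146° to 184°, held at 2537 ± 154 and 2589 ± 62.6 from 196° to 284°, and reached 3345 ± 539 and 6584 ± 1632 in the windows that followed. The return was thus slow and in steps, with a plateau, whereas the fall took few samples. The fitted range was 1.94 ± 0.27 (SE, n = 32), with a peak at 359.4° ± 8.6 (limma adjusted p = 3.86e-07), and it was larger than that of 90.3% of genes tested.

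RPB8 (YOR224C) encodes a small common subunit with an oligonucleotide-binding fold. Its signal ranged from 2423 at 109° to 9916 at 46.8°, with a median of 4315, and the fitted range was 1.24 ± 0.20 with a peak at 7.7° ± 10.2 (SE, n = 32, limma adjusted p = 5.02e-06). RPO26 (YPR187W) encodes the common subunit also called Rpb6, which helps to hold the largest subunit in the enzyme. Its signal ranged from 2585 at 122° to 11483 at 23.8°, with a median of 5729.8, and the fitted range was 1.35 ± 0.19 with a peak at 351° ± 8.6 (SE, n = 32, limma adjusted p = 4.23e-07). Both genes had the course of RPB5. Pearson's r over the 32 samples was 0.99 between RPB5 and RPO26, 0.99 between RPB5 and RPB8 and 0.97 between RPB8 and RPO26, given as a description of arrays that share 1 culture. With quantile normalization the fall from 59.2° to 96.6° was shallowest for RPO26, which fell on from 3664 at 96.6° to 2654 at 109°. Over this span of 12 min, a straight line through the 4 log2 levels fell by 0.19 ± 0.01 per min for RPB5, by 0.15 ± 0.01 for RPB8 and by 0.12 ± 0.01 for RPO26 (SE of the line). This amounts to a halving every 5.27, 6.75 and 8.06 min. The poly-A controls rose from 7.50 to 8.08 on the log2 scale over the same span, and these rates were not fitted under other scalings.

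A curve of 1 harmonic described RPB5, RPB8 and RPO26, with their steep fall and slow return, only in part. The second harmonic passed its test in 8 of the 10 genes (limma adjusted p under 0.05), a share near the 83.9% of all genes. RPO21 (limma adjusted p = 0.904) and RPB11 (0.141) did not pass. With 2 harmonics the share of variance explained rose from 0.64 to 0.95 for RPB5, from 0.56 to 0.91 for RPB8 and from 0.64 to 0.93 for RPO26. The curves then had their maxima at 26°, 29° and 25° and their minima at 137° in all 3.

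The same class has a pair of further genes outside the rule that chose the 10. RPB10 (YOR210W) and RPC10 (YHR143W-A) encode the remaining subunits common to the polymerases. Their fitted ranges were 1.31 ± 0.20 with a peak at 0.8° and 1.41 ± 0.20 with a peak at 358° (SE, n = 32, limma adjusted p = 1.2e-06 and 4.4e-07). All 5 genes of common subunits therefore had fitted ranges of more than 1 on the log2 scale and cosine peaks within 9° of 0°. Their curves with 2 harmonics had maxima later, from 25° to 29°.

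Among the genes of polymerase II alone, RPB9 (YGL070C) moved most. Its product is a small subunit with a part in start site choice, in fidelity and in RNA cleavage, and is dispensable for growth in yeast. The signal ranged from 983 at 122° to 2736 at 46.8°, with a median of 1332. It was at least 2244 in the samples from 21.8° to 59.2° and again in the last 2, at 11.1° and 23.8°, and at most 1571 from 84.2° to 358°. The fitted range was 0.68 ± 0.16 with a peak at 25.1° ± 14.4 (SE, n = 32, limma adjusted p = 0.000739). That range lay near the middle of all genes, above 52.8% of them. The profile of RPB9 correlated with those of RPB8 (r = 0.91), RPB5 (0.88) and RPO26 (0.85) over the 32 samples.

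RPO21 (YDL140C) encodes the largest subunit, Rpb1, which holds the active centre together with Rpb2 and carries the C-terminal repeat domain. Its signal ranged from 5014 to 7431 with a median of 6295 and did not pass the test (range 0.13 ± 0.06, SE, n = 32, limma adjusted p = 0.158). Its lowest sample, at 21.8°, and its highest, at 23.8°, had nearly the same phase 1 turn apart. The first 3 samples averaged 12.41 ± 0.10 on the log2 scale and the last 3, which had the highest ACT1 ratios, 12.76 ± 0.11 (SD, n = 3). Without the last 3 samples its range was 0.19 ± 0.06 and passed (limma adjusted p = 0.0201), and with the deposited values, which ranged from 5556 to 6987, the gene passed too (limma adjusted p = 0.011), with a range of 0.16 ± 0.04. With poly-A control scaling the range was 0.60 ± 0.13 and the peak lay at 77.2° in place of 244° (limma adjusted p = 0.000822). Its call, size and peak thus depended on the scaling, and its call also on 3 samples.

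RPB2 (YOR151C) encodes the second-largest subunit. Its signal ranged from 3802 at 134.03° to 6041 at 71.7°, with a median of 4448, and its highest levels lasted later than those of the common subunits, staying between 5857 and 6041 from 34.3° to 71.7°. The fitted range was 0.34 ± 0.08 with a peak at 28.2° ± 13.5 (SE, n = 32, limma adjusted p = 0.000469). Its correlation with RPB8 over the samples was 0.92.

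RPB3 (YIL021W) and RPB11 (YOL005C) encode the pair of subunits on which assembly of the enzyme starts. RPB3 had signals of 2265 to 3565 (median 2996), with its highest at 34.3° and its lowest at 96.6°; the fitted range was 0.25 ± 0.08 and the peak at 314° ± 17.7 (SE, n = 32, limma adjusted p = 0.0157). RPB11 had signals of 3601 to 4909 (median 3898), with its highest at 59.2° and its lowest at 309°; the fitted range was 0.21 ± 0.04 and the peak at 103° ± 10.5 (SE, n = 32, adjusted p = 0.00041). With 2 harmonics the share of variance explained for RPB3 rose from 0.25 to 0.67, and the maximum of its curve lay at 13°. With poly-A control scaling the range of RPB3 was 0.60 and its cosine peak lay at 46.8°. The profiles of these partners were not alike (r = -0.0024 over the 32 samples).

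RPB4 (YJL140W) and RPB7 (YDR404C) encode the stalk, a pair of subunits that can leave the enzyme. With quantile normalization RPB4 was the one gene of the 10 that was low where the common subunits were high; with poly-A control scaling its range was 0.64 and its peak moved to 95.1°. Its signal ranged from 3422 at 23.8°, in the last sample, to 4981 at 159°, with a median of 4590.1, and the fitted range was 0.23 ± 0.05 with a peak at 190.2° ± 12.9 (SE, n = 32, limma adjusted p = 0.000432). Its r with RPB9, RPB5, RPB8 and RPO26 lay between -0.80 and -0.76. The last 3 samples, which had the highest ACT1 ratios and are part of these r, held its 3 lowest signals. They averaged 11.84 ± 0.09 on the log2 scale, against 12.06 ± 0.09 in the first 3, at nearly the same phases (SD, n = 3). Without the last 3 samples the range of RPB4 was 0.16 ± 0.04 (limma adjusted p = 0.0046). RPB7 had signals of 2491 to 3571 (median 2776), with its highest at 59.2° and its lowest at 321°; its fitted range was 0.22 ± 0.06 and its peak at 88.2° ± 15.1 (SE, n = 32, limma adjusted p = 0.00765). Without the 5 samples of lowest poly-A signal the range of RPB7 was 0.084 and did not pass (limma adjusted p = 0.161). The r between these stalk partners was -0.19.

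Neighbouring samples were not independent: the median lag-1 autocorrelation of the residuals over all genes was 0.66. After whitening each gene by its own autocorrelation, 5 of the 10 genes passed, beside 79% of all genes: RPB5 (limma-moderated adjusted p = 0.00593), RPO26 (0.00722), RPB8 (0.0206), RPB9 (0.0252) and RPB4 (0.00586). After whitening all genes by the median autocorrelation, which was added after the data were seen, 5 of the 10 passed, beside 66.9% of all genes; RPB2 (adjusted p = 0.0496) took the place of RPB4 (0.051). RPB3, RPB7, RPB11 and RPO21 passed under neither. When blocks of 4 neighbouring samples were left out by a jackknife, the error of the range of RPB5 grew from 0.27 to 0.51 and that of its peak from 8.6° to 26.3°. Both errors grew in each of the 10 genes, and that of the peak lay between 18.7° for RPB4 and 51.2° for RPO21. Ranges and peaks elsewhere in the text carry the smaller errors of the fit.

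Whether the other subunit genes followed the gene of the largest subunit was tested on the log2 difference between each gene and RPO21, fitted for all genes. RPO21 itself had a range of 0.13 that did not pass. For genes of large range this test therefore largely repeats the test of the gene alone. Of the 9 others, 7 differed from RPO21 (limma adjusted p under 0.05), beside 85.7% of all genes, and with 2 harmonics 8 did, beside 87.4%. The fitted range of the difference was 2.00 ± 0.27 for RPB5, 1.40 ± 0.19 for RPO26, 1.32 ± 0.21 for RPB8 and 0.79 ± 0.17 for RPB9 (SE, n = 32, limma adjusted p from 2.72e-07 to 0.000234). RPB2, RPB7 and RPB11 differed by 0.46 ± 0.10, 0.35 ± 0.09 and 0.33 ± 0.07. RPB3 (0.24 ± 0.10, limma adjusted p = 0.0668) and RPB4 (0.19 ± 0.09, 0.166) did not pass. RPB3 passed with the 3 other scalings, which share 1 value of this difference (0.32 ± 0.10, limma adjusted p = 0.0229), with linear time added (0.39 ± 0.11, 0.00351) and without the last 3 samples (0.29 ± 0.10, 0.0394). With linear time added RPB7 (0.15 ± 0.08, limma adjusted p = 0.189) and RPB11 (0.17 ± 0.07, 0.13) did not pass. The reference RPO21 was itself higher in the last 3 samples than in the first 3, by 0.35 on the log2 scale. After whitening, 5 of the 9 passed, beside 70.3% of all genes: RPB5, RPB8, RPO26, RPB9 and RPB11.

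The same difference was taken from RPO31, which encodes the largest subunit of polymerase III, and from RPA190, that of polymerase I. These 2 references were added after the values were seen. Their own fitted ranges were 1.30 and 2.82, so for a gene of small range the difference largely repeats the range of the reference. RPB8, RPB10 and RPC10 were not told apart from RPO31 in this fit of 1 harmonic without whitening. The range of the difference was 0.08 ± 0.08, 0.11 ± 0.09 and 0.20 ± 0.09 (SE, n = 32, limma adjusted p = 0.72, 0.598 and 0.177), while 97.2% of all genes differed from RPO31. RPO31 had the smallest range of the 10 polymerase III genes, whose median was 1.91. The other polymerase III genes were not used as references. RPO26 (0.33 ± 0.07, adjusted p = 0.00424) and RPB5 (0.66 ± 0.12, 8.59e-05) differed from RPO31, and so did the 7 genes of polymerase II alone, with ranges from 0.70 ± 0.10 for RPB9 to 1.53 ± 0.20 for RPB4. From RPA190 all 10 genes differed, beside 96.9% of all genes. RPB5 lay closest to it, with a difference of 0.95 ± 0.24, and RPB4 farthest, with 3.05 ± 0.35.

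**Figure D2:**
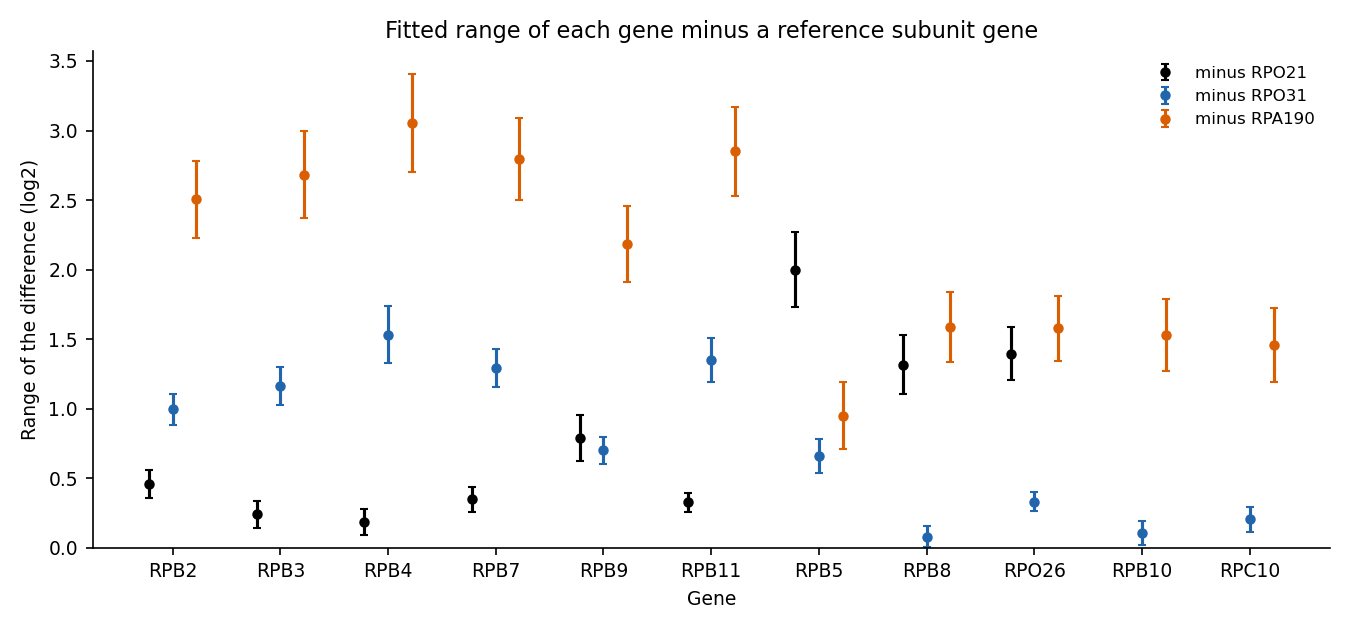
Fitted range of the log2 difference between each subunit gene and the gene of the largest subunit of polymerase II (RPO21), III (RPO31) or I (RPA190), with SE over 32 samples; 0 means that the fitted courses were the same. RPB8 and RPB10 lay within 2 SE of 0 against RPO31, and the genes of polymerase II alone lay nearer to RPO21 than to RPA190. They also lay nearer to RPO21 than to RPO31, apart from RPB9, with 0.79 ± 0.17 against RPO21 and 0.70 ± 0.10 against RPO31. For genes of small range these distances largely repeat the ranges of RPO21, RPO31 and RPA190 themselves, 0.13, 1.30 and 2.82.

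The corresponding genes of the other polymerases, chosen as counterparts after values were seen, show how far the enzymes differed position by position. For the largest subunit the fitted range was 0.13 in RPO21, 1.30 ± 0.18 in RPO31 and 2.82 ± 0.33 in RPA190, with peaks at 5.5° and 7.9° in the genes that varied. For the second-largest it was 0.34 in RPB2, 2.03 ± 0.24 in RET1 of polymerase III and 3.06 ± 0.37 in RPA135 of polymerase I. The pair RPB3 and RPB11, with 0.25 and 0.21, has as its counterparts RPC40 and RPC19 of polymerases I and III, with 2.29 ± 0.29 and 2.75 ± 0.37. The stalk genes RPB4 and RPB7, with 0.23 and 0.22, stand against RPC17 and RPC25 of polymerase III, with 2.03 and 1.87, and RPA14 and RPA43 of polymerase I, with 1.55 and 3.36. RPB9, with 0.68, has as its counterparts RPC11, with 1.41, and RPA12, with 3.14. At each of these positions the polymerase II gene had the smallest range. Over the lists, the median range was 1.91 for the 10 genes of polymerase III, with the highest in RPC37 (2.11 ± 0.27), and 3.06 for the 7 of polymerase I, with the highest in RPA49 (3.97 ± 0.49).

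**Figure D3:**
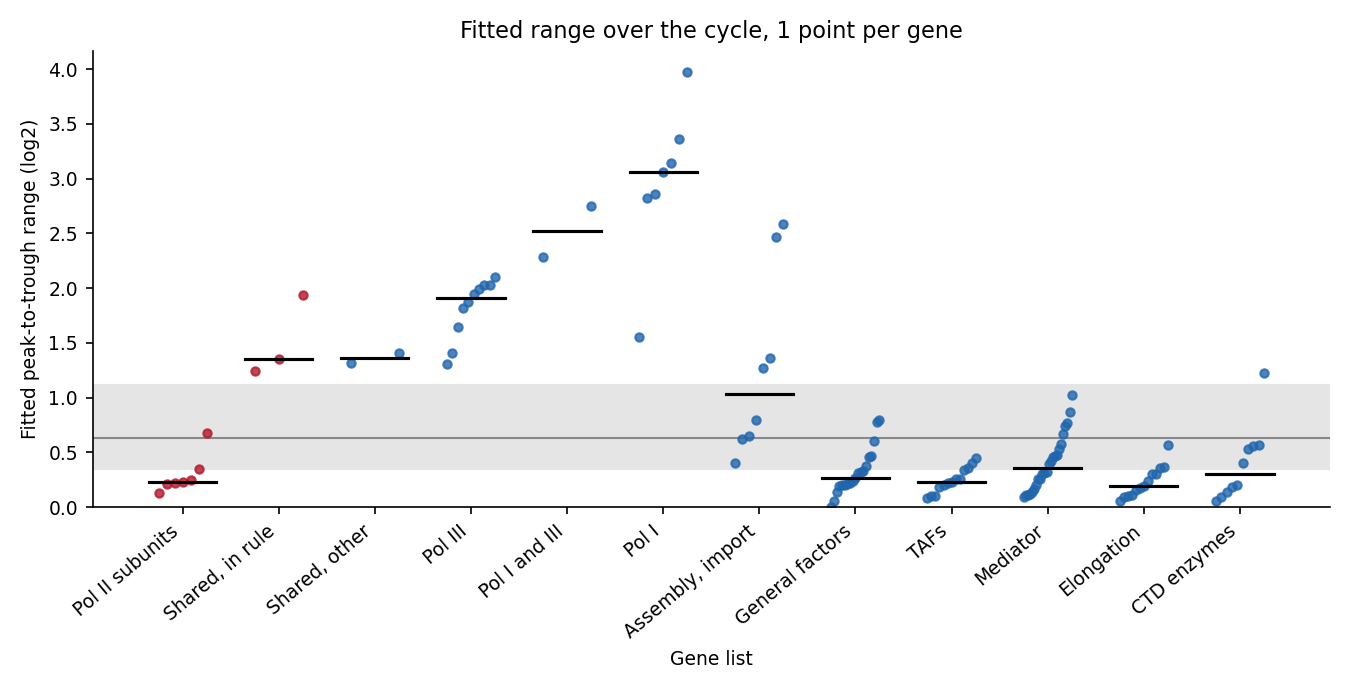
Fitted peak-to-trough range on the log2 scale, 1 point per gene, for the 10 genes (red, in 2 classes) and for other gene lists (blue); black bars are list medians, and the grey line and band give the median and the middle quartiles of all 5377 genes tested. The 5 common subunits lie between 1.24 and 1.94, and the genes of polymerase II alone between 0.13 and 0.68.

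The switch between 46.8° to 84.2° and 96.6° to 134.03° was also compared directly, 4 samples against 4; these windows were set with earlier results of these data known. RPB5 had a normalized signal of 5849.7 ± 2539 before and 1236 ± 254 after (SD, n = 4). The groups did not overlap, and the log2 difference was -2.13 ± 0.35 (SE, limma adjusted p = 0.00291), a fall of 4.38-fold. RPB8 went from 7998 ± 2422 to 2622 ± 221 and RPO26 from 8581 ± 2388 to 2901 ± 511 (SD, n = 4), without overlap. Their log2 differences were -1.55 ± 0.23 and -1.53 ± 0.23 (SE, limma adjusted p = 0.00271 for each). The large SDs before the switch hold the fall itself, which began inside that window.

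Among the genes of polymerase II alone, RPB9 went from 2009 ± 625 to 1100.3 ± 98.2 (SD, n = 4), a log2 difference of -0.82 ± 0.22 (limma adjusted p = 0.0137). RPB2 went from 5736 ± 412 to 3882 ± 142, a log2 difference of -0.56 ± 0.08 (limma adjusted p = 0.00253), and RPB7 from 3471 ± 124 to 2771 ± 81.3, a difference of -0.32 ± 0.06 (0.00389). RPB3 (-0.37 ± 0.13, limma adjusted p = 0.0412) and RPB11 (-0.19 ± 0.07, 0.0484) passed narrowly. RPO21, at 6116 ± 206 before and 6106 ± 409 after, did not pass (limma adjusted p = 0.962), nor did RPB4, at 4466 ± 402 and 4752 ± 176 (0.343). The windows of RPO21 and RPB4 overlapped and those of the other 8 genes did not, beside 60.9% of all genes without overlap. In all, 8 of the 10 genes were lower after the switch and 0 were higher, beside 29.5% of all genes lower and 35.9% higher (65.4% in either direction). A fall of at least 1 on the log2 scale was found for 3 of the 10, against 10.7% of all genes.

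**Figure D4:**
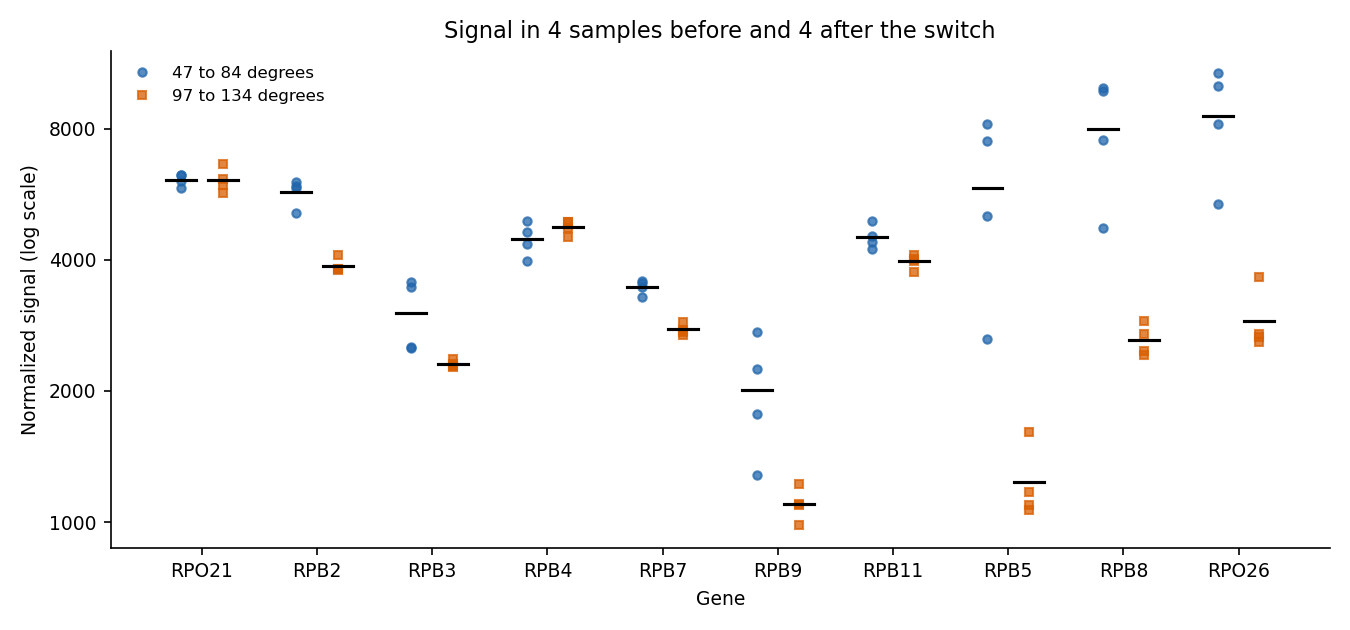
Normalized signal on a log axis in the 4 samples from 46.8° to 84.2° (blue circles) and the 4 from 96.6° to 134.03° (orange squares), with the mean of each as a bar. RPB5, RPB8 and RPO26 dropped by 2.89-fold to 4.38-fold without overlap, and the samples of RPO21 and RPB4 overlapped.

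The size of these falls depended on how the arrays were scaled. With poly-A control scaling the median difference of all genes at the switch was -0.65 on the log2 scale, against 0.05 with quantile normalization, and 64.1% of genes were called lower and 5.5% higher. All 10 genes were then called lower, with differences of -0.60 ± 0.11 for RPO21 and -0.46 ± 0.13 for RPB4 (SE, n = 4 in each window, limma adjusted p = 0.00122 and 0.0114), both smaller falls than that median. The common subunits had -2.92 (RPB5), -2.25 (RPB8) and -2.22 (RPO26) there. With the deposited values, 5 of the 10 were called lower, namely RPB5, RPB8, RPO26, RPB9 and RPB2, beside 27.8% of all genes lower and 29.8% higher. With arrays centred on their medians, 6 were called lower, RPB7 being the sixth, beside 31.5% lower and 34.9% higher. RPB5, RPB8 and RPO26 were lower after the switch under the 4 scalings tried, with -1.51 as the smallest difference, and the direction of RPO21 and RPB4 changed with the scaling.

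**Figure D5:**
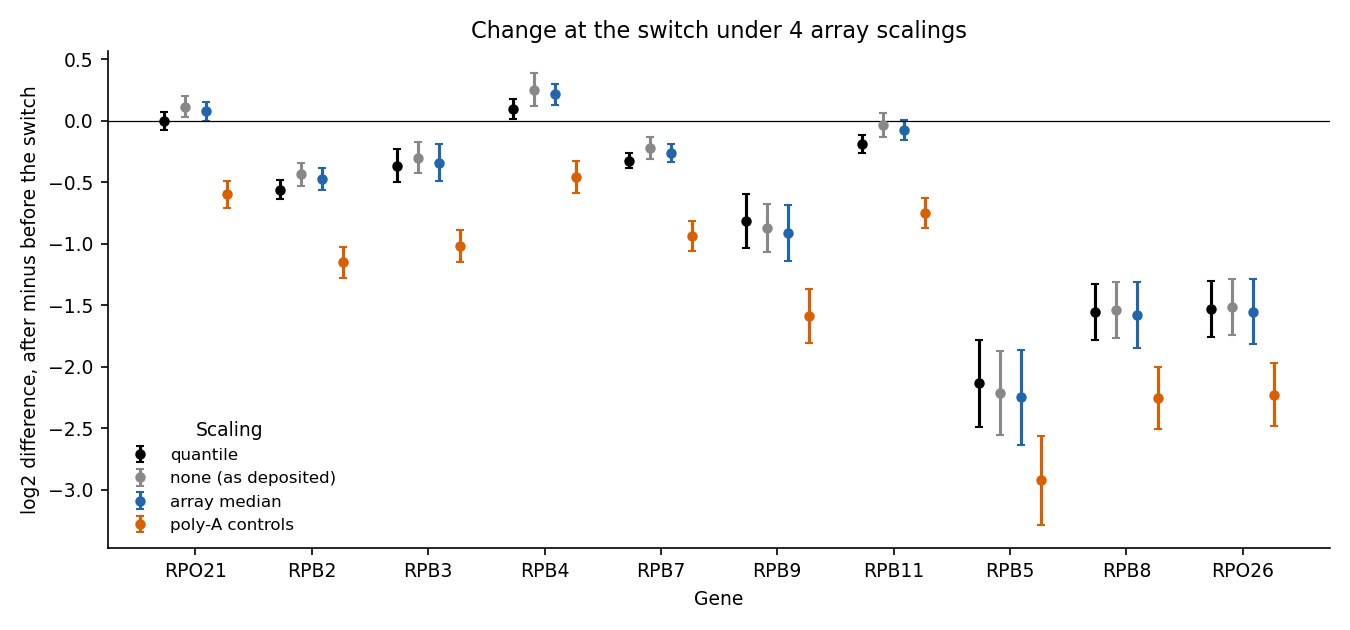
Log2 difference between the 4 samples from 96.6° to 134.03° and the 4 from 46.8° to 84.2° for each of the 10 genes under 4 scalings of the arrays, with the SE of the limma fit. Poly-A control scaling moved all genes down by a similar amount, and RPB5, RPB8 and RPO26 stayed the lowest under each scaling.

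For each of the 10 genes the most similar profile among the other genes tested was found by Pearson's r over the 32 samples, which is a description. RPB5 was closest to NOC3 (r = 0.997), needed for maturation of the large ribosomal subunit, RPB8 to RPA14 of polymerase I (0.993), and RPO26 to NEW1 (0.996), which encodes an ATP-binding cassette protein of translation. RPB9 was closest to RPP1 (0.962), a subunit of the RNA-processing enzymes RNase P and MRP, and RPB2 to DBP5 (0.954), an RNA helicase of mRNA export. Profiles with r above 0.9 were common for RPB5, RPB8 and RPO26, at 630, 628 and 556 genes, and fewer for RPB9 (199), RPB2 (158) and RPB4 (11). RPO21, RPB3, RPB7 and RPB11 had 0 such genes: the closest were HOR7 (0.761), APQ12 (0.892), PIF1 (0.897) and DUO1 (0.848). RPB4 was closest to SNX41 (0.92).

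With quantile normalization the factors that work with polymerase II had small median ranges too, beside 0.63 for all genes. With poly-A control scaling the medians lay closer to that of all genes, 0.84. They were 0.67 for general transcription factors, 0.70 for TATA-binding protein associated factors and 0.75 for Mediator. Elongation factors had 0.76 there, and kinases and phosphatases of the C-terminal domain 0.60. Of 19 general transcription factor genes, whose products place the enzyme at promoters, 15 varied with phase, below the 91.3% of all genes, with a median range of 0.26, and 0 reached a range of 1. The largest were CCL1, the cyclin of the TFIIH kinase, with 0.79 ± 0.08 and a peak at 163°, and SPT15, encoding the TATA-binding protein, which serves all polymerases, with 0.78 ± 0.11 and a peak at 32.6° (SE, n = 32). At the switch SPT15 fell by 0.90 ± 0.12 on the log2 scale (limma adjusted p = 0.00253) and CCL1 rose by 0.51 ± 0.10 (0.00415), a call that was lost with poly-A control scaling, where 16 of the 19 were lower and 0 higher. Of 13 genes of TATA-binding protein associated factors 7 varied, again below that share, with a median range of 0.23, TAF2 (0.44 ± 0.05) and TAF11 (0.40 ± 0.08) having the largest.

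Of 24 measured genes of Mediator, the complex that links activators to polymerase II, 19 varied, also a smaller share than the 91.3% of all genes, and their median range was 0.36. ROX3 had the largest, 1.03 ± 0.15 with a peak at 6.7°, and SSN8, the cyclin of the Mediator kinase, had 0.87 ± 0.12 on the other side of the cycle, at 157° (SE, n = 32). Of 13 genes of elongation factors 8 varied, below the share of all genes, with a median range of 0.19. DST1, encoding the cleavage factor TFIIS, had 0.57 ± 0.10 and SPT4 had 0.36 ± 0.10. Of 10 measured genes of kinases and phosphatases of the C-terminal domain 6 varied, below it too, with a median of 0.30, BUR2 (1.22 ± 0.19) and SGV1 (0.57 ± 0.12), cyclin and kinase of the same complex, having the largest; both peaked within 23° of 0°. At the switch 29.5% of all genes were lower and 35.9% higher, and the genes behind the small counts below are named after their values were seen. Of the general factor genes 8 were lower and 2 higher, TOA2 (0.29) and CCL1. Of the associated factor genes 5 were lower, TAF4, TAF5, TAF9, TAF10 and TAF13, with differences from -0.37 to -0.23, and TAF12 (0.19) was higher. Of the Mediator genes SRB2 (-0.83), SRB8 (-0.52) and RGR1 (-0.32) were lower and SSN8 (0.73), SSN2 (0.53), NUT1 (0.30) and MED11 (0.23) higher. With the deposited values 6 Mediator genes were lower and 0 higher, beside 27.8% and 29.8% of all genes. With poly-A control scaling 20 were lower and 0 higher, beside 64.1% and 5.5% of all genes, and 0 genes of the other lists in this paragraph were higher there. Of the elongation genes DST1 (-0.71), SPN1 (-0.52), SPT5 (-0.35), SPT6 (-0.29) and SPT16 (-0.26) were lower, and of the kinase and phosphatase list SGV1 (-0.75) and FCP1 (-0.43), the phosphatase of the C-terminal domain.

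The genes of polymerase assembly and import moved more. All 8 varied, beside 91.3% of all genes, with a median range of 1.03 beside 0.63. The largest were BUD27 (2.58 ± 0.31, peak at 358°), a prefoldin-like factor in assembly of the 3 polymerases, and RBA50 (2.47 ± 0.25, peak at 1.7°), a factor in assembly of polymerase II (SE, n = 32). At the switch 6 of the 8 were lower, beside 29.5% of all genes. IWR1, which encodes an import factor of polymerase II and is named after its values were seen, was higher by 0.73 ± 0.15 (limma adjusted p = 0.00454), and RTR1 did not pass (0.0506). With poly-A control scaling 7 of the 8 were lower and 0 higher, so the call of IWR1 was lost. The direction of the median of each list named here, lower after the switch, was the same under the 4 scalings.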

How the data were processed

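Total RNA of 32 samples was amplified from oligo(dT) primers and hybridised to Affymetrix arrays, per the labels' protocols. The authors deposited intensities on a linear scale. GCOS is named in the submitters' processing notes, with no version or scaling given in the sources used here. The array annotation linked 5498 of 10928 probe sets to 1 S. cerevisiae gene each, with locus names from RefSeq, and 1747 to S. pombe. A pseudocount of 1.9 (the 10th percentile) was added before log2, and S. cerevisiae probe sets were quantile normalized, since array medians spanned 0.70 on that scale. The brightest probe set stood for each gene, and genes above the 95th percentile of S. pombe probe sets (4.44) were tested. R 4.3.3 and limma 3.58.1 fitted the cosine and sine of phase, a second harmonic, each gene minus RPO21, and the 4-against-4 comparison. Benjamini-Hochberg adjustment was over all genes. The fits were also run on simulated data, with conditions for passing set only for data without dependence between neighbouring samples. Errors of ranges and peaks come from the fit by the delta method.

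The 10 genes and the other lists (117 entries, of which SRB4 and ESS1 matched no probe set) were chosen with earlier results of these data known. Genes outside the 10 are named as the other common subunits, the 2 largest subunits of polymerases I and III, up to 2 genes of largest range that varied in each list, and the gene closest to each of the 10. Counterpart subunits and the genes behind small counts at the switch lie outside this rule and were named after their values were seen. Columns without a sample: 0. Identical columns: 0. The search of promoters was not run because no promoter sequences were used here.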

Additional observations from a re-analysis of the deposited data

Results flagged for a closer look

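Within the windows of 4 samples on either side of the switch, the 10 genes were checked for a sample far from the other 3, giving 20 groups, of which chance alone would mark about 1 in 20. RPB2 was marked from 96.6° to 134.03°, where the sample at 96.6° had a normalized signal of 4095 and the other 3 lay between 3802 and 3816. RPO26 was marked in the same window and by the same sample, with 3664 against 2585 to 2703. In both genes the sample is the first of the window, next to the fall. Without it the log2 difference at the switch remained called for both genes, as it did without any other of the 8 samples.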

How the results depend on the processing

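The settings tried were 3 other scalings, pseudocounts of 1 and 20, no filter or the 99th percentile as filter, the mean of probe sets, whitening by gene, linear time or array running number as an added term, odd or even time points, leaving out the last 3 samples or the 5 of lowest poly-A signal, 2 harmonics, and a fit of the switch over 8 windows. Each scaling kept the calls of RPB5, RPB8, RPO26, RPB9 and RPB2, in range and at the switch. RPB3 lost its range call with array medians (limma adjusted p = 0.24) and RPB7 with the deposited values (0.342), with linear time added (0.141), with odd (0.156) and even (0.0992) time points and without the 5 samples of lowest poly-A signal (0.161). The count of the 10 genes that varied, 9, was 5 after whitening by gene, 5 after whitening by the median autocorrelation (added after the data were seen) and 5 with odd time points. The count that differed from RPO21, 7, was 3 with odd time points, and with 2 harmonics it was 8 and became 5 with even time points. The count changed at the switch, 8, was 5 with the deposited values and 6 to 8 when each of the 8 samples was left out; RPB3 and RPB11 were the calls lost, with log2 differences of -0.45 to -0.28 and -0.22 to -0.15. Leave-one-out ranges were -2.47 to -1.93 for RPB5, -1.78 to -1.43 for RPB8, -1.74 to -1.41 for RPO26, -1.01 to -0.65 for RPB9, -0.61 to -0.53 for RPB2, -0.35 to -0.31 for RPB7, 0.04 to 0.14 for RPB4 and -0.05 to 0.03 for RPO21. With poly-A scaling the cosine peaks of RPB3 and RPB4 moved over 90°, to 46.8° and 95.1°, with ranges of 0.60 and 0.64. The cause was not tested. Whitening by a gene's own autocorrelation removes the dependence between neighbours only in part. No paired analysis was possible because the samples form 1 group. Signals of the 10 genes lay far above background, so low signal limited none of them.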
